A study of Mus musculus with 12 samples.

Results

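The genes that write, copy and remove DNA methylation were followed in 4 cell populations sorted from C57BL/6 mouse fetal liver (FL): *Dnmt1*, *Uhrf1*, *Dnmt3a*, *Dnmt3b*, *Tet1*, *Tet2*, *Tet3* and *Tdg*. These 8 genes were taken by name from the 38127 genes of the count files, and all 8 were found and passed the filter on low counts. RNA sequencing was done on 12 bulk libraries, 3 biological replicates per population, with total counts from 40714017 to 64368883 per library. All cells were Ter119-CD45-, that is, sorted as lacking the erythrocyte marker Ter119 and the pan-hematopoietic marker CD45, and carried no genetic change or treatment in the labels. At embryonic day (E) 14.5 the populations were Ter119-CD45-CD54-CD31-Kit+CD24+ cells (P2 cells), Ter119-CD45-CD54+CD31- cells (CD54+ cells) and Ter119-CD45-CD54+CD31+ cells (CD31+ cells). The fourth population had the CD54+CD31- phenotype and was sorted at E18.5.

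Methylation of cytosine in CpG dinucleotides is copied to the new strand after DNA replication by the maintenance methyltransferase DNMT1, which is brought to hemimethylated sites by UHRF1. DNMT3A and DNMT3B place new methyl groups on unmethylated CpGs. The TET dioxygenases oxidise methylated cytosine stepwise, and the glycosylase TDG removes the oxidised bases so that base excision repair can restore cytosine. In the blood system *Dnmt3a* and *Tet2* are known for their roles in hematopoietic stem cells, and loss of methylation accompanies erythroid maturation in FL.

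The genes lie, in GENCODE vM21 coordinates of GRCm38, at chr9:20907209-20959888 (*Dnmt1*, minus strand), chr17:56303321-56323486 (*Uhrf1*, plus), chr12:3806007-3914443 (*Dnmt3a*, plus), chr2:153649450-153687730 (*Dnmt3b*, plus), chr10:62804570-62908996 (*Tet1*, minus), chr3:133463679-133545139 (*Tet2*, minus), chr6:83362373-83459084 (*Tet3*, minus) and chr10:82629828-82650799 (*Tdg*, plus). Promoter windows from RefSeq (GRCm38.p6), from 250 bases before to 50 bases after a transcription start, were found for all 8 genes, 13 windows in all. Their CpG counts ranged from 2 to 57, against a median of 7 over 32851 windows of the same length. The bases before the start are shown for 4 genes, because *Dnmt1* and *Uhrf1* shared their highest level in P2 cells and their lowest at E18.5, while *Dnmt3a* and *Dnmt3b* were ordered differently. Capitals mark GGGCGG (the GC box) and CCAAT, on either strand, and annotated exon bases were left out. The positions are chr9:20952624-20952707 on the minus strand for *Dnmt1*, chr17:56304063-56304312 on the plus strand for *Uhrf1*, chr12:3806730-3806979 on the plus strand for *Dnmt3a* and chr2:153649199-153649448 on the plus strand for *Dnmt3b*.
Dnmt1: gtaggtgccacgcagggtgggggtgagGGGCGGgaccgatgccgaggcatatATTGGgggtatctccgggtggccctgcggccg
Uhrf1: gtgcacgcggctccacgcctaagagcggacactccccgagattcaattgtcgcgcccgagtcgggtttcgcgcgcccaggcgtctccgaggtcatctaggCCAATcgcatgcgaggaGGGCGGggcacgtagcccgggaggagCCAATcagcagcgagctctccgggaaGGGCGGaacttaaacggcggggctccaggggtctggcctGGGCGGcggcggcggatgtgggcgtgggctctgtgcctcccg
Dnmt3a: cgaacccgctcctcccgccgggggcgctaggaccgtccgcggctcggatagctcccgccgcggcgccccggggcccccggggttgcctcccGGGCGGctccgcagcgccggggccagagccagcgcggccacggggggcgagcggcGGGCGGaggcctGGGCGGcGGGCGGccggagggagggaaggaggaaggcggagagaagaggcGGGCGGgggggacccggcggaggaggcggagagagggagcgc
Dnmt3b: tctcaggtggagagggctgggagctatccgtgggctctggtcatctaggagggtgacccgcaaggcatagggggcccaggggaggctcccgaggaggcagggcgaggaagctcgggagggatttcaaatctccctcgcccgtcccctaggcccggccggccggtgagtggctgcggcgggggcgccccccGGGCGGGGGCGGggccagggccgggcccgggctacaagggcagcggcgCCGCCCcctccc

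GGGCGG was found in 10 of the 13 windows, and in 35.7% of all windows. The 2 *Dnmt3a* windows around the upstream starts held 46 and 47 CpGs, and the *Dnmt3b* window 30. CCAAT was found in 6 of the 13 windows, which belong to *Dnmt1*, *Uhrf1*, *Tet3* and *Tdg*, and in 37.4% of all windows. TTTGGCGC, a form of the site bound by E2F factors, was found in 1 window, 33 bases after a *Dnmt1* start, and in 0.514% of all windows. TTTCCCGC, another E2F form present in 1.07% of all windows, and AGATAA, a form of the GATA site present in 11.2%, were in none of the 13. Both strands were searched, no searched motif contains another, and a match describes letters only.

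Levels are given as CPM, counts scaled to a common library size with edgeR's TMM factors over all 12 libraries, and in CPM per kb of exon where genes are compared with each other. In every population *Dnmt1* had the highest level per kb of exon among the 8 genes. At E18.5 this rested on the division by exon length. In CPM *Dnmt1* (99.8) was below *Tet3* (203) and *Dnmt3a* (182) there. Per kb, *Dnmt1* stood at 97.0 ± 4.57 CPM (SD, n = 3) in P2 cells and 46.5 ± 0.724 in CD54+ cells. It stood at 61.5 ± 2.55 in CD31+ cells and 13.5 ± 1.88 in the E18.5 cells. *Uhrf1* came next at E14.5, at 77.2 ± 5.23 CPM per kb in P2 cells, 39.1 ± 1.13 in CD54+ cells and 29.6 ± 2.20 in CD31+ cells, and below *Tet3*, *Dnmt3a* and *Tet2* at E18.5, at 5.30 ± 1.62. Its place in CD54+ and CD31+ cells also rested on exon length. In CPM *Dnmt3a* (229) stood above *Uhrf1* (167) in CD54+ cells. In CD31+ cells *Tet3* (245) and *Dnmt3a* (223) stood above *Uhrf1* (126). *Tet1* was the lowest of the 8 in each E14.5 population, from 0.385 CPM per kb in P2 cells to 0.678 in CD54+ cells, and *Dnmt3b* was the lowest at E18.5, at 1.51 CPM per kb. Between these ends the order changed. In P2 cells *Tet3* (8.35 CPM per kb), *Dnmt3b* (7.60), *Tdg* (5.03) and *Dnmt3a* (4.47) followed *Uhrf1*, whereas in CD54+ cells *Dnmt3a* (13.8) came directly after *Uhrf1*, and *Dnmt3b* (2.76) after *Tet3* and *Tdg*. Neighbours whose library ranges overlapped were *Tet3* and *Dnmt3b* in P2 cells, *Tdg* and *Dnmt3b* in CD54+ cells, *Tet3* and *Dnmt3a* in CD31+ cells, and at E18.5 *Dnmt1* and *Tet3*, *Tet2* and *Uhrf1*, and *Tet1* and *Tdg*.

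**Figure D1:**
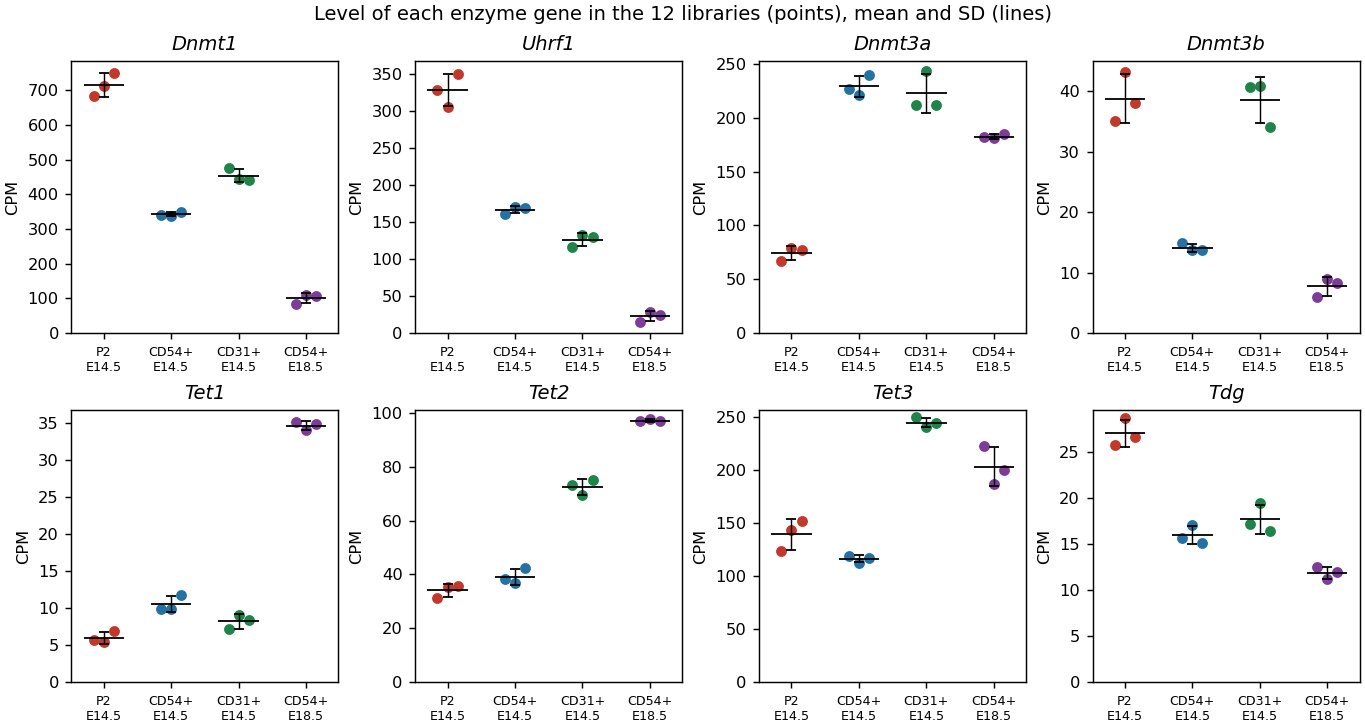
CPM of each of the 8 genes (vertical axis, linear from 0) in the 3 libraries of each population (points), with the mean and SD (lines). *Dnmt1* and *Uhrf1* were highest in P2 cells and lowest at E18.5, while *Dnmt3a* was lowest in P2 cells and *Tet1* and *Tet2* were highest at E18.5.

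The E18.5 libraries did not read as liver epithelium alone, which bears on each value from that age. A list of 15 lung epithelium markers summed to 25518, 11986 and 12057 CPM in replicates 1, 2 and 3 at E18.5, against 180 to 193 CPM in CD54+ cells at E14.5, and none of the 15 was at 0 at E18.5. Hepatoblast markers (16 genes) summed to 6494, 43016 and 56031 CPM at E18.5 and to 82406 to 94611 CPM at E14.5. Stellate and mesenchymal markers (12 genes, of which *Lrat* was at 0 in all libraries) summed to 4282 to 4506 CPM at E18.5 and 1178 to 1228 CPM at E14.5. Replicate 1 at E18.5 stood apart from replicates 2 and 3. The part of these other tissues in the differences with age was not tested. At E14.5 hepatoblast markers summed to at most 1129 CPM in P2 and CD31+ cells, endothelial markers to 10542 to 11102 CPM in CD31+ cells and 44.5 to 437 CPM in P2 and CD54+ cells, and erythroid markers to 3691 to 4046 CPM in P2 cells and 591 to 1479 CPM in the other E14.5 cells. The 437 CPM of endothelial markers belonged to replicate 2 of P2, whose other libraries had 65.1 and 118. Summed markers of blood cells, which the sort for CD45- cells should leave out, were highest in CD31+ cells. Macrophage markers (12 genes) summed to 1378 to 1661 CPM there, 209 to 349 in CD54+ cells and 17.2 to 68.9 in P2 cells, megakaryocyte markers (10 genes) to 524 to 850, 61.8 to 76.4 and 59.7 to 136, and granulocyte markers (10 genes) to 157 to 669, 10.7 to 137 and 3.01 to 5.22. The 137 CPM belonged to replicate 2 of CD54+, whose other libraries had 10.7 and 10.8. Single macrophage markers mostly went against their sum. Of 11 tested, 1 was higher and 8 lower in CD31+ than in CD54+ cells (median log2 fold change -1.02, largest 5.67). All 10 megakaryocyte markers were higher there, and of 9 tested granulocyte markers 4 were higher and 1 lower. The part of blood cells in the E14.5 differences was not tested. *Alas2*, an erythroid marker, was listed at 0 in all 12 libraries, P2 cells included. Whether the counting dropped reads of the genes listed at 0 throughout, here and below, was not tested, so these zeros are not read as absence of the RNA.

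To compare P2 cells with the epithelial fraction of the same age, P2 and CD54+ cells were set against each other in edgeR's quasi-likelihood fit, with p-values adjusted over 15461 genes by Benjamini and Hochberg. Among the 8 enzyme genes, 5 were called higher and 2 lower in P2 cells (threshold, adjusted p of 0.05), where 70% of all tested genes were called, 33.8% higher and 36.1% lower. *Dnmt1*, *Uhrf1*, *Dnmt3b*, *Tdg* and *Tet3* were higher, and *Dnmt3a* and *Tet1* were lower. Under the authors' scaling factors the split was 4 higher and 3 lower. P2 cells had 3 of these genes higher (*Dnmt1*, *Uhrf1*, *Tdg*) and 4 lower (*Dnmt3a*, *Tet1*, *Tet2*, *Tet3*) than CD31+ cells, beside 73.7% of all genes called (34.3% higher and 39.4% lower), and the split was 2 and 5 with the authors' factors. CD31+ against CD54+ cells gave 4 higher (*Dnmt1*, *Dnmt3b*, *Tet2*, *Tet3*) and 1 lower (*Uhrf1*), beside 65.6% of all genes (31.7% higher and 34% lower). With library totals alone as scaling this became 6 higher and 0 lower, as that scaling moved the median of all genes by 0.50 on the log2 scale. With age, 3 genes rose (*Tet1*, *Tet2*, *Tet3*) and 3 fell (*Dnmt1*, *Uhrf1*, *Dnmt3b*) in CD54+ cells, beside 69.4% of 15863 genes called (35.9% higher and 33.5% lower). The comparisons at E14.5 share libraries, so their values are given side by side. In these bulk samples fewer cells of a type and less RNA per cell cannot be told apart.

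**Figure D2:**
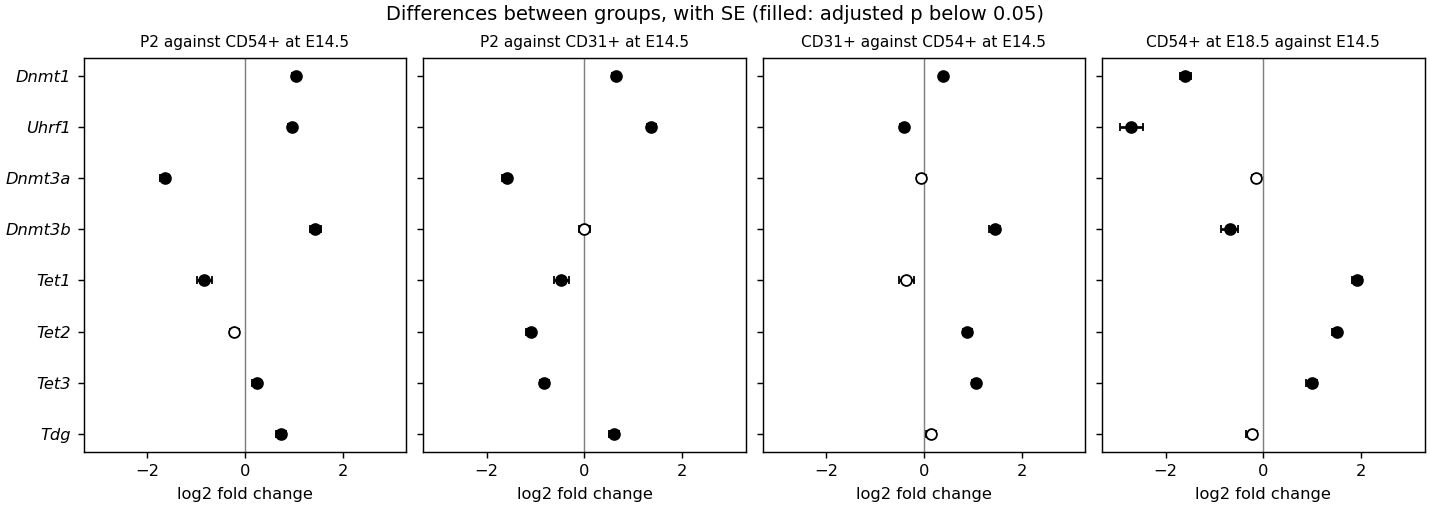
Log2 fold change with its SE (horizontal axis) of each gene in the 4 comparisons, filled where the adjusted p was below 0.05. *Dnmt3a* lay far to the left in both P2 comparisons, and the *Tet* genes lay to the right with age while *Uhrf1* and *Dnmt1* lay to the left.

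Of the maintenance pair, *Dnmt1* was read at 684, 711 and 751 CPM in P2 cells, 341, 339 and 349 in CD54+ cells, 475, 444 and 441 in CD31+ cells, and 83.9, 109 and 107 at E18.5. No library of any population reached into the range of another. *Dnmt1* was 1.04 ± 0.08 (SE) higher on the log2 scale in P2 than in CD54+ cells (adjusted p = 7.42e-07), 0.65 ± 0.08 higher in P2 than in CD31+ cells (adjusted p = 2.51e-05) and 0.40 ± 0.08 higher in CD31+ than in CD54+ cells (adjusted p = 0.00105). It fell by 1.60 ± 0.12 between E14.5 and E18.5 (adjusted p = 6.02e-05). *Uhrf1* was read at 329, 306 and 351 CPM in P2 cells, 161, 170 and 169 in CD54+ cells, 116, 133 and 130 in CD31+ cells, and 14.9, 28.3 and 24.5 at E18.5. It too had separate ranges in all 4 populations, but CD54+ cells stood above CD31+ cells, the reverse of *Dnmt1*. P2 cells exceeded CD54+ cells by 0.96 ± 0.09 (adjusted p = 3.24e-06) and CD31+ cells by 1.37 ± 0.09 (adjusted p = 3.15e-07). The difference between CD31+ and CD54+ cells was -0.41 ± 0.09 (adjusted p = 0.00188), which was lost in a fit of all 12 libraries (adjusted p = 0.0771) and turned to 0.09 with library totals alone. With age *Uhrf1* fell by 2.70 ± 0.23 (adjusted p = 8.53e-05), the largest change of the 8 genes in the 4 comparisons. Replicate 1 at E18.5, with the most lung epithelium and the least hepatoblast RNA, had the lowest *Dnmt1* and *Uhrf1*. Without this replicate the changes were -1.50 for *Dnmt1* and -2.49 for *Uhrf1*. Replicates 2 and 3 held lung epithelium RNA as well, and its part in the falls was not tested.

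*Uhrf1* has a near copy, the pseudogene *Gm5648* on chromosome X, which matches it at 98.3% over 1590 bases. *Gm5648* had 289 to 353 counts in P2 libraries, 141 to 157 in CD54+, 118 to 134 in CD31+ and 6 to 33 at E18.5, beside 14325 to 18223 *Uhrf1* counts in P2 cells and 964 to 2185 at E18.5. How many *Uhrf1* reads were counted to the copy is uncertain, since the treatment of reads with several alignments is not given in the sources used here.

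The maintenance pair was then set against DNA replication, the step it follows. Of 15 replication genes 14 were tested (*Gins2* was at 0 in all 12 libraries), and 14 were higher in P2 than in CD54+ cells (median log2 fold change 1.29, against -0.01 over all genes), 14 higher in P2 than in CD31+ cells (median 1.53, against -0.13) and 14 lower at E18.5 (median -2.31, against 0.03). The largest differences were those of *Cdc6*, a replication licensing factor, and *Mcm3* in P2 against CD54+ cells (1.56 and 1.54), *Cdc6* and *Mcm7* in P2 against CD31+ cells (1.88 and 1.86), and *Prim1*, a primase subunit, and *Mcm5* with age (-2.68 and -2.66). *Mcm3*, *Mcm5* and *Mcm7* encode subunits of the replicative helicase. Between CD31+ and CD54+ cells 3 were higher and 6 lower, a split that turned to 6 and 1 with library totals alone. *Mcm3* and *Pola1*, a DNA polymerase subunit, led upward (0.42 and 0.30), and *Rrm2*, a ribonucleotide reductase subunit, and *Prim1* led downward (-0.85 and -0.75).

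The log2 ratio of *Dnmt1* to the mean of the replication genes, both per kb of exon, was 0.33, 0.47 and 0.51 in P2 cells, 0.89, 0.50 and 0.70 in CD54+ cells, 1.33, 1.115 and 1.25 in CD31+ cells and 1.62, 1.17 and 1.21 at E18.5. The ratio was thus lowest in P2 cells, where *Dnmt1* itself was highest, with an overlap between P2 and CD54+ cells. It differed between the 4 populations in an exact permutation test of the between-group variation over 15400 assignments of the libraries (p = 0.00136, adjusted over 8 such measures 0.00136, smallest possible p = 6.49e-05). The ratio of *Uhrf1* was 0.07, 0.05 and 0.20 in P2 cells, 0.60, 0.29 and 0.45 in CD54+ cells, 0.08, 0.16 and 0.28 in CD31+ cells and -0.08, 0.02 and -0.12 at E18.5. It was highest in CD54+ cells at E14.5 and lowest at E18.5, and P2 and CD31+ cells overlapped (exact permutation p = 0.00117, adjusted 0.00134). The mean was taken over all 15 replication genes with *Gins2* at 0, which raised every ratio by the same amount. Differences between libraries do not depend on this, but the sign of a ratio near 0 does. Per kb of exon, *Dnmt1* counts were 1.15 to 1.22 times those of *Uhrf1* in CD54+ cells at E14.5, 1.20 to 1.34 times in P2 cells, 1.93 to 2.37 times in CD31+ cells and 2.22 to 3.24 times at E18.5.

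**Figure D3:**
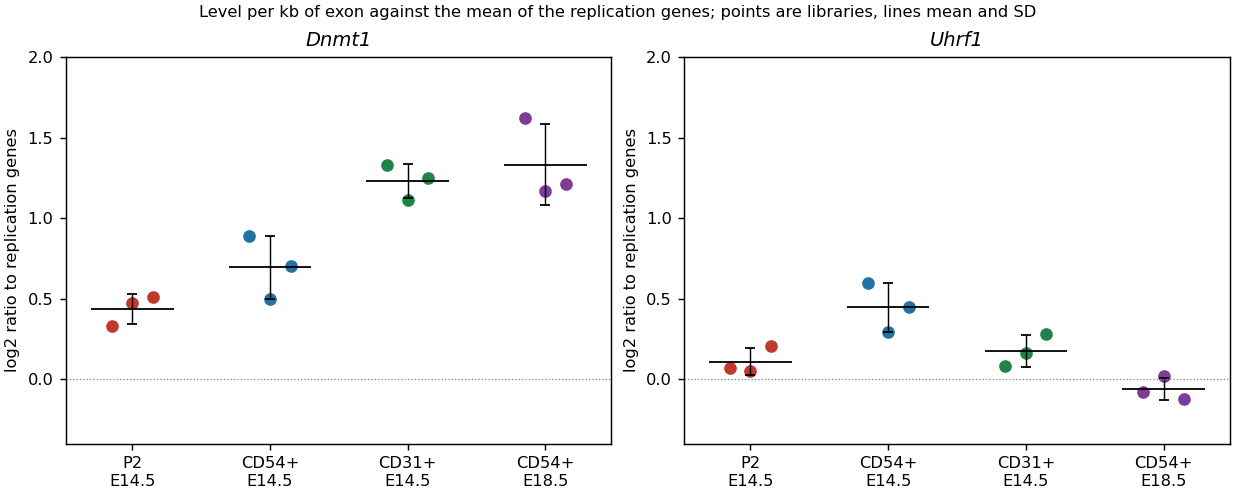
Log2 ratio of *Dnmt1* (left) and *Uhrf1* (right) to the mean of the replication genes, per kb of exon (vertical axis, 0 marks equality with a mean that counts *Gins2* as 0), for each library (points) with mean and SD (lines). The *Dnmt1* ratio was above 1.1 in all CD31+ and E18.5 libraries and at most 0.89 in all others, while the *Uhrf1* ratio stayed between -0.12 and 0.60.

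The de novo enzymes moved apart. *Dnmt3a* was read at 66.6, 79.3 and 77.3 CPM in P2 cells, 227, 221 and 240 in CD54+ cells, 212, 244 and 212 in CD31+ cells, and 182, 181 and 185 at E18.5. All P2 libraries were below all others. The log2 difference was -1.64 ± 0.10 from CD54+ cells (adjusted p = 1.33e-07) and -1.59 ± 0.10 from CD31+ cells (adjusted p = 2.34e-07). CD31+ and CD54+ cells overlapped, with a difference of -0.05 and a 95% interval of -0.24 to 0.13, but library totals alone gave 0.45 (adjusted p = 0.00286). The change with age was -0.14 ± 0.09 (adjusted p = 0.183). It was -0.33 in the fit of all 12 libraries (adjusted p = 0.00793) but 0.27 with library totals alone (0.0671) and 0.0916 with the authors' factors (0.457).

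*Dnmt3b* was read at 35.1, 43.2 and 38.2 CPM in P2 cells, 14.9, 13.7 and 13.7 in CD54+ cells, 40.8, 40.8 and 34.2 in CD31+ cells, and 5.90, 8.90 and 8.34 at E18.5. P2 and CD31+ cells shared a range well above CD54+ cells. It was 1.44 ± 0.11 higher in P2 than in CD54+ cells (adjusted p = 1.04e-06) and 1.45 ± 0.11 higher in CD31+ than in CD54+ cells (adjusted p = 1.25e-06). Between P2 and CD31+ cells the difference was -0.00 with a 95% interval of -0.21 to 0.21, and -0.37 with the authors' factors (adjusted p = 0.0215). It fell by 0.69 ± 0.17 with age (adjusted p = 0.0101), a call that was lost with library totals alone (-0.27, adjusted p = 0.206). Per kb of exon, *Dnmt3a* counts were 0.563 to 0.621 times those of *Dnmt3b* in P2 libraries and 1.59 to 1.90 times in CD31+. They were 4.68 to 5.37 times in CD54+ and 6.23 to 9.46 times at E18.5. By this measure P2 was the population in which *Dnmt3b* exceeded *Dnmt3a*. In CPM, without division by exon length, *Dnmt3a* was the higher in P2 cells too (74.4 against 38.8). The order there thus depends on the exon lengths used, 16.642 kb for *Dnmt3a* and 5.106 kb for *Dnmt3b*. An annotated relative, *Dnmt3c-ps*, which was singled out after its values were seen, had 210 to 280 counts in P2 libraries and 4 to 49 in the others. *Dnmt3aos*, antisense to *Dnmt3a* over 133 exon bases, had 0 counts in all libraries.

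As shares of the summed *Dnmt1*, *Dnmt3a* and *Dnmt3b* counts per kb, *Dnmt1* made up 88.9 ± 0.861% in P2 cells (SD, n = 3), 73.8 ± 0.394% in CD54+ cells, 74.6 ± 1.67% in CD31+ cells and 51.9 ± 2.94% at E18.5. *Dnmt3a* made up 4.10 ± 0.239%, 21.9 ± 0.482%, 16.2 ± 1.37% and 42.4 ± 3.69% in the same order. *Dnmt3b* made up 6.97 ± 0.644%, 4.38 ± 0.239%, 9.16 ± 0.631% and 5.77 ± 0.752%. That *Dnmt1* held a larger share than *Dnmt3a* at E18.5 rested on the division by exon length. In CPM *Dnmt3a* (182) stood above *Dnmt1* (99.8) there. Each share differed between the populations (exact permutation p = 0.00026 for *Dnmt1* and 6.49e-05, the smallest possible, for *Dnmt3a* and *Dnmt3b*; adjusted over the 8 measures 0.000346 and 0.00013). CD54+ and CD31+ cells at E14.5 had *Dnmt1* shares whose ranges overlapped, while their *Dnmt3a* and *Dnmt3b* shares did not overlap.

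**Figure D4:**
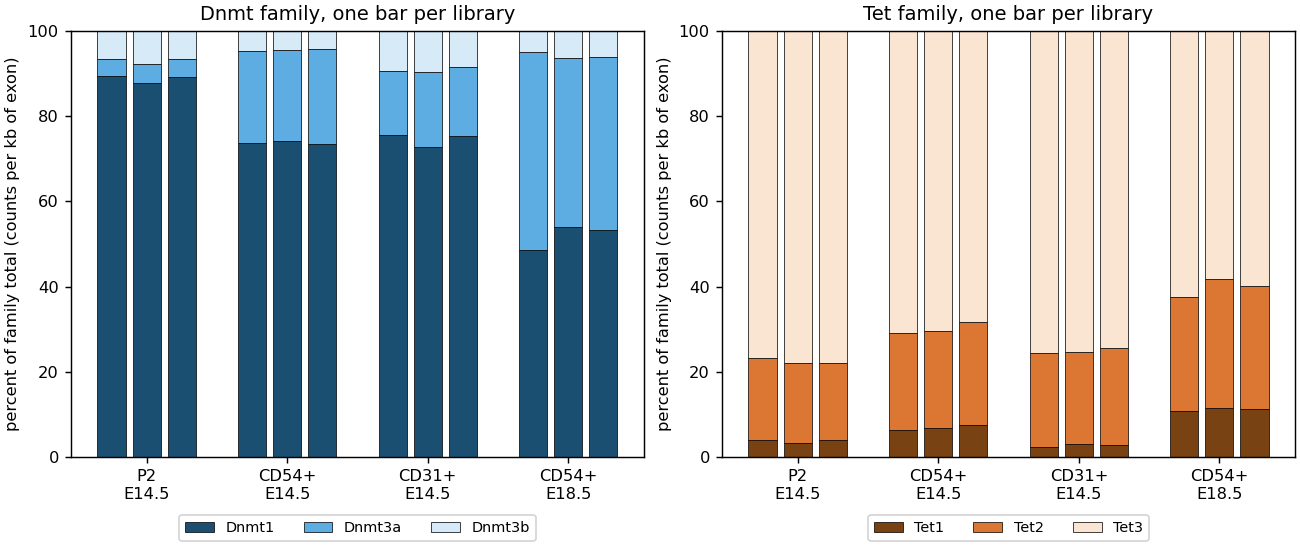
Percent of the family total, in counts per kb of exon (vertical axis), taken by each enzyme in the Dnmt family (left) and the Tet family (right), with 1 bar per library. *Dnmt3a* took 4.10% on average in P2 cells and 42.4% at E18.5, and *Tet3* was the largest part of the Tet family in every library.

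The *Tet* genes were each highest outside P2 cells. *Tet1* was read at 5.65, 5.35 and 6.84 CPM in P2 cells, 9.82, 9.88 and 11.7 in CD54+ cells, 7.09, 9.09 and 8.43 in CD31+ cells, and 35.1, 34.0 and 34.8 at E18.5. The E18.5 libraries stood far above all others, and P2 libraries below. *Tet1* differed by -0.84 ± 0.16 on the log2 scale between P2 and CD54+ cells (adjusted p = 0.00071) and by -0.48 ± 0.15 from CD31+ cells (adjusted p = 0.0176). The latter call was lost on leaving out replicate 2 or 3 of CD31+ or replicate 1 or 2 of P2 (adjusted p from 0.0719 to 0.114) or with no filter on low counts (0.0516). The difference between CD31+ and CD54+ cells was -0.36 ± 0.15 (adjusted p = 0.0616), and it passed the threshold without replicate 2 of CD54+ (adjusted p = 0.0405), without replicate 2 or 3 of CD31+ (0.0272 and 0.0496) and in the fit of all 12 libraries (0.0399), while library totals alone turned it to 0.13 (0.485). With age it rose by 1.91 ± 0.10 (adjusted p = 2.28e-05).

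*Tet2* was read at 31.3, 35.2 and 35.6 CPM in P2 cells, 38.3, 36.6 and 42.3 in CD54+ cells, 73.0, 69.3 and 75.2 in CD31+ cells, and 97.0, 97.7 and 96.9 at E18.5. P2 and CD54+ cells lay close together, with CD31+ cells well above both. The difference between P2 and CD31+ cells was -1.10 ± 0.09 (adjusted p = 1.62e-06), and CD31+ exceeded CD54+ cells by 0.88 ± 0.09 (adjusted p = 1.00e-05). P2 and CD54+ cells differed by -0.22 ± 0.09 (adjusted p = 0.0519). That value crossed the threshold with the authors' factors (-0.48, adjusted p = 0.00215), with at least 10 counts required in every library (0.00826), in a fit of the 6 libraries alone (0.0346) and without replicate 2 of CD54+ (0.0408), while library totals alone turned it to 0.16 (0.204). With age *Tet2* rose by 1.50 ± 0.09 (adjusted p = 2.64e-05).

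*Tet3* was read at 123, 143 and 152 CPM in P2 cells, 119, 112 and 117 in CD54+ cells, 250, 240 and 244 in CD31+ cells, and 223, 187 and 200 at E18.5. CD31+ cells had the highest level and the E18.5 cells came next. CD31+ cells exceeded CD54+ cells by 1.07 ± 0.09 (adjusted p = 2.49e-06), and P2 cells differed from CD31+ cells by -0.82 ± 0.09 (adjusted p = 1.30e-05). P2 cells were 0.24 ± 0.09 above CD54+ cells (adjusted p = 0.0325), but the direction turned with the authors' factors (-0.02, adjusted p = 0.879) and the call was lost on leaving out replicate 2 or 3 of CD54+ or of P2 (adjusted p from 0.0753 to 0.13), with no filter on low counts (0.0739) and with at least 10 counts required in every library (0.159). *Tet3* rose by 0.99 ± 0.11 with age (adjusted p = 0.00027). Without replicate 1 of E18.5, in which the lung epithelium markers were highest, the rises were 1.88 for *Tet1*, 1.48 for *Tet2* and 0.90 for *Tet3*. Replicates 2 and 3 still held 11986 and 12057 CPM of these markers, and the part of other tissue was not tested.

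Within the Tet family, by counts per kb, *Tet3* made up 77.6 ± 0.645% in P2 cells, 69.9 ± 1.47% in CD54+ cells, 75.2 ± 0.627% in CD31+ cells and 60.2 ± 2.09% at E18.5. *Tet2* made up 18.8 ± 0.606%, 23.3 ± 0.96%, 22.1 ± 0.597% and 28.6 ± 1.66%, and *Tet1* 3.58 ± 0.381%, 6.80 ± 0.521%, 2.73 ± 0.379% and 11.1 ± 0.44% in the same order. Each share differed between the populations (exact permutation p = 6.49e-05 for *Tet1* and *Tet3*, 0.00013 for *Tet2*; adjusted 0.00013 and 0.000208). *Tet1* thus held its smallest share in CD31+ cells, although its lowest level was in P2 cells.

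*Tdg*, the glycosylase downstream of the TET enzymes, was read at 25.8, 28.7 and 26.6 CPM in P2 cells, 15.7, 17.0 and 15.1 in CD54+ cells, 17.2, 19.5 and 16.4 in CD31+ cells, and 12.5, 11.2 and 11.99 at E18.5. The P2 libraries were above all others, and CD54+ and CD31+ cells overlapped. P2 cells exceeded CD54+ cells by 0.74 ± 0.10 (adjusted p = 8.13e-05) and CD31+ cells by 0.60 ± 0.10 (adjusted p = 0.00033), the latter reduced to 0.23 with the authors' factors (adjusted p = 0.0631). CD31+ and CD54+ cells differed by 0.14 with a 95% interval of -0.06 to 0.34, and by 0.64 with library totals alone (adjusted p = 0.000247). The change with age was -0.24 ± 0.11 (adjusted p = 0.0953), -0.29 without replicate 1 of E18.5 (adjusted p = 0.0461) and -0.43 in the fit of all 12 libraries (adjusted p = 0.00341), but it turned to 0.18 with library totals alone (adjusted p = 0.244). *Tdg* is uncertain, as it overlaps *Glt8d2* on the opposite strand over 367 bases, or 6.83% of its exons, and *Tdg-ps*, *Gm9855* and *Gm5597* copy it at 98.7 to 99.3% identity. *Glt8d2* had 20 to 87 counts at E14.5 and 244 to 255 at E18.5, and *Gm9855* had 36 to 43 in P2 libraries and at most 10 elsewhere. *Tdg-ps* had at most 2 counts and *Gm5597* had 0.

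The genes whose profile over the 12 libraries was most like that of a member were sought among 13212 genes with a mean of at least 1 CPM, by Pearson's r of log2(CPM + 1). For *Dnmt1* they included *Tubb5* (r = 0.997) and *Mcm3* (0.996), and for *Uhrf1* they were *Spdl1*, *Ndc1* and *Hells* (each 0.998). For *Dnmt3a* they were *Gpx3* (0.996), *Kif1b* (0.995) and *Nagk* (0.993), and for *Dnmt3b* *Fam78a* (0.992), *Asap1* (0.991) and *Smap2* (0.99). *Tet1* was most like *Arhgap8* (0.993), *Sorcs2* (0.992) and *Cd14* (0.992), *Tet2* most like *Gli3* (0.994), *Klf4* (0.993) and *Nr4a1* (0.991), and *Tet3* most like *Plekhm3* (0.988), *Tbc1d4* (0.986) and *Itga6* (0.985). *Tdg* was most like *Ctbp1* (0.992), *Cherp* (0.991) and *Fam192a* (0.991). The 12 libraries lie in 4 clusters, the populations, and the values are a description. Among the members, *Dnmt1* was most like *Uhrf1* (r = 0.97) and least like *Tet1* (r = -0.99), and *Dnmt3a* and *Dnmt3b* had r = -0.42.

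The other genes of the pathway were counted over 78 genes in 7 lists, of which 67 were tested. In P2 against CD54+ cells 32 were higher and 22 lower, and the split was 25 and 26 with the authors' factors and 41 and 14 with library totals alone. The splits were 34 and 16 in P2 against CD31+ cells (26 and 27 with the authors' factors), 19 and 29 in CD31+ against CD54+ cells (34 and 15 with library totals alone), and 18 and 33 with age (24 and 21 with library totals alone). The totals of 54, 50, 48 and 51 called, or 80.6%, 74.6%, 71.6% and 76.1% of those tested, stood near the background of 70%, 73.7%, 65.6% and 69.4%.

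The maintenance partners were listed as genes that act with DNMT1 and UHRF1. They include *Pcna*, which also serves DNA replication, so this list is not separate from replication. Of 9 tested, 8 were higher and 0 lower in P2 than in CD54+ cells (median log2 fold change 0.86), led by *Cdca7l* (1.50) and *Cdca7* (1.41), which works with the remodeler HELLS. Over all tested genes 33.8% were higher and 36.1% lower in this comparison. With the authors' factors the split of the partners was 5 and 1 (median 0.60). Against CD31+ cells 6 were higher and 1 lower (median 1.13), led by *Cdca7l* (1.98) and *Cdca7* (1.38), with the deacetylase *Hdac1* lower (-0.30). In CD31+ against CD54+ cells *Hdac1* alone was higher (0.57), and 4 were lower, led by *Cdca7l* (-0.49) and the acetyltransferase *Kat5* (-0.35), but with library totals alone 6 were higher and 0 lower. With age 1 rose, *Zbtb24* (0.69), and 7 fell, led by *Hells* (-2.48) and *Cdca7l* (-2.06).

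The de novo partners are mostly histone methyltransferases. Of 8 tested, 5 were higher and 0 lower in P2 than in CD54+ cells, led by *Setdb1* (0.72), which methylates histone H3 at lysine 9, and *Setd2* (0.69), which methylates lysine 36. With the authors' factors this split was 3 and 1. Against CD31+ cells 4 were higher, led by *Setdb1* (1.06) and *Ehmt2* (0.45), and *Ehmt1* was lower (-0.32), a split that turned to 1 and 3 with the authors' factors. In CD31+ against CD54+ cells 3 were higher, led by *Kmt2a* (0.85) and *Ehmt1* (0.77), and 2 lower, *Ehmt2* (-0.42) and *Setdb1* (-0.34), where library totals alone gave 6 and 0. With age 4 rose, led by *Kmt2a* (0.84) and *Ehmt1* (0.48), and 3 fell, led by the RNA methyltransferase *Trdmt1* (-0.79) and *Ehmt2* (-0.61). *Dnmt3l*, the catalytically inactive cofactor of the de novo enzymes, had at most 3 counts in any library and was not tested.

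The TET partners supply or modulate the 2-oxoglutarate dioxygenases. Of 10 tested, 1 was higher and 5 lower in P2 than in CD54+ cells. The glycosyltransferase *Ogt*, which binds TET proteins, was higher (0.68), and *Cxxc5* (-4.89), a CXXC zinc finger gene, and *Idh1* (-4.69), an isocitrate dehydrogenase, were lowest. *Idh1* averaged 11.7 CPM in P2 cells and 297 CPM in CD54+ cells. Against CD31+ cells 4 were higher, among them *Fh1* (0.82), and 4 lower, led by *Cxxc5* (-3.90) and *Cxxc4* (-3.89), or 3 and 5 with the authors' factors. In CD31+ against CD54+ cells 2 were higher, *Cxxc4* (4.03) and *Ogt* (0.53), and 7 lower, led by *Idh1* (-2.79) and *Fh1* (-1.72), which encodes fumarate hydratase. With age 3 rose, led by *Cxxc4* (3.04) and *Egln1* (1.20), and 6 fell, led by *Fh1* (-2.26) and *Cxxc5* (-1.85). *Cxxc4* was low throughout, at 0.212 to 3.54 CPM on average.

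Of 13 tested base excision partners, 8 were higher and 4 lower in P2 than in CD54+ cells, with *Mbd4*, another thymine glycosylase (1.12), and *Gadd45a* (0.92) highest and *Gadd45b* (-3.85) and *Neil2* (-2.20) lowest. P2 libraries held few counts of these last genes, 7 to 13 of *Gadd45b* and 7 to 11 of *Neil2*. Against CD31+ cells 7 were higher, led by *Gadd45a* (1.48) and the uracil glycosylase *Ung* (1.18), and 3 lower, led by *Neil2* (-4.15) and *Gadd45b* (-3.08), or 6 and 6 with the authors' factors. In CD31+ against CD54+ cells 4 were higher, led by *Neil2* (1.95) and *Mbd4* (1.32), and 5 lower, led by *Ung* (-0.90) and the endonuclease *Apex1* (-0.70), which became 7 and 1 with library totals alone. With age 3 rose, led by *Gadd45g* (3.88) and *Gadd45b* (2.89), and 8 fell, led by *Ung* (-2.39) and *Apex1* (-2.10).

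Among 10 genes listed as methyl-CpG readers or their relatives, 2 were higher in P2 than in CD54+ cells, *Mbd2* (1.23, at 301 against 127 CPM) and *Mbd1* (0.95), and 5 lower, led by *Zbtb4* (-2.52) and *Zfp57* (-0.86), a protector of imprints. *Zfp57* was low in both, at 0.768 and 1.38 CPM on average, with overlapping ranges (adjusted p = 0.038). With library totals alone 4 were higher and 2 lower. Against CD31+ cells *Mbd2* (0.87) and *Mbd3* (0.71) were higher and 6 lower, led by *Zfp57* (-5.47) and *Zbtb4* (-3.72). In CD31+ against CD54+ cells 7 were higher, led by *Zfp57* (4.61, at 34.1 against 1.38 CPM) and *Zbtb4* (1.20), and *Mbd3* was lower (-0.52). With age 5 rose, led by *Zfp57* (3.98) and *Zbtb4* (2.12), and 2 fell, *Mbd3* (-1.36) and *Mbd2* (-0.40).

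The 14 methyl donor enzymes, which run the folate and methionine cycles, split by gene. In P2 against CD54+ cells 7 were higher, led by *Mat2a* (1.63), the methionine adenosyltransferase of most tissues, and the methionine synthase *Mtr* (1.19), and 6 lower, led by the liver form *Mat1a* (-6.64) and *Bhmt* (-6.30). *Mat1a* averaged 0.906 CPM in P2 cells and 89.2 CPM in CD54+ cells. Against CD31+ cells 10 were higher, led by *Mthfd1* (2.79) and *Ahcy* (2.34), and 1 lower. In CD31+ against CD54+ cells *Mtr* was higher (0.27) and 10 were lower, led by *Mat1a* (-6.28) and *Bhmt* (-6.02). With age *Ahcyl2* rose (1.08) and 7 fell, led by *Shmt1* (-2.67) and *Shmt2* (-1.37).

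Germline genes known to be silenced by promoter methylation stayed near 0. The 12 genes summed to between 0.913 and 4.24 CPM in any library, and 3 passed the filter. *Ddx4*, a germ cell RNA helicase, averaged 1.63 CPM in P2 cells, 0.27 in CD54+ cells and 0.822 in CD31+ cells, with called differences of 2.57, 0.98 and 1.59 in the 3 E14.5 comparisons. CD54+ libraries held 7 to 12 counts of *Ddx4*. *Tdrd1* was lower in P2 than in CD54+ cells (-1.79) and rose with age (2.84, from 0.364 to 2.31 CPM). *Sycp1* was lower in P2 than in CD54+ cells (-1.70, adjusted p = 0.0424), with overlapping CPM ranges. Both P2 differences rested on few counts per library. *Tdrd1* had 2 to 7 counts in P2 and 10 to 17 in CD54+ libraries, and *Sycp1* 2 to 7 and 4 to 19. *Sycp3* was at 0 in all libraries, where a count of 0 allows up to 3 counts.

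**Figure D5:**
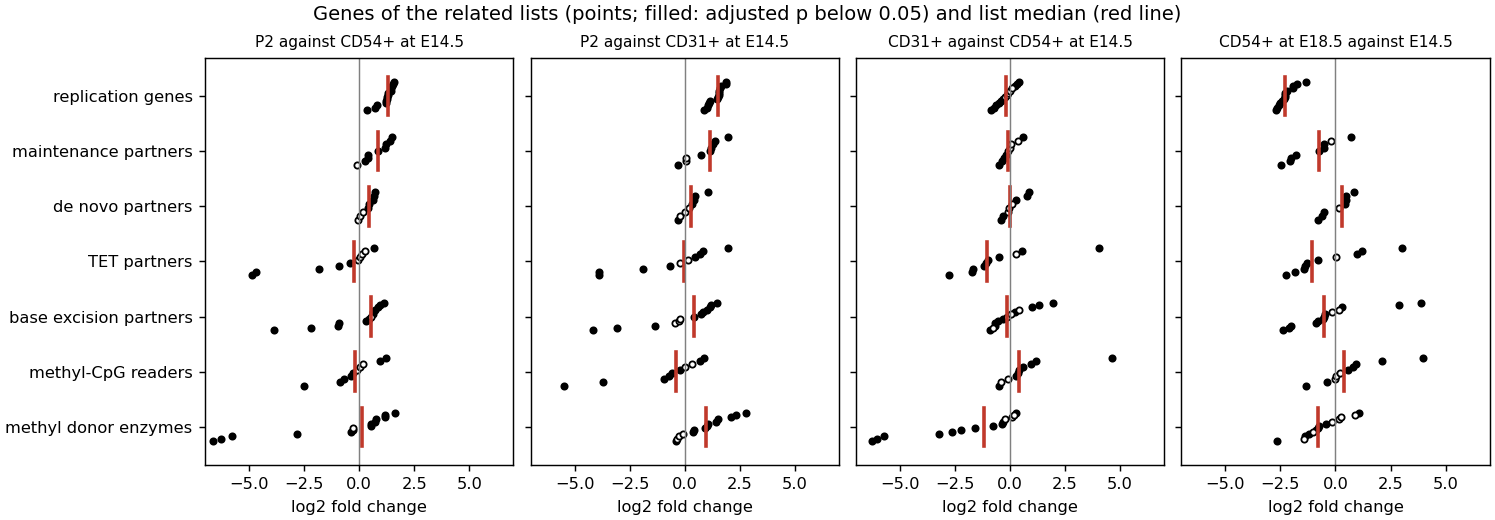
Log2 fold change (horizontal axis) of each tested gene of the replication list and of 6 pathway lists in the 4 comparisons, filled where the adjusted p was below 0.05, with the list median in red. The replication genes lay to the right in both P2 comparisons and to the left with age, and the methyl donor list spread from -6.64 to 1.63 in P2 against CD54+ cells.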

How the data were processed

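Total RNA of sorted FL cells was sequenced in 12 libraries, after enzymatic removal of ribosomal RNA with a stranded kit. Per the labels and the study's methods, the authors trimmed reads with cutadapt 1.11, aligned them to GRCm38 (mm10) with STAR 2.5.0a and counted them per gene with featureCounts 1.4.6-p3. The strand setting and the treatment of reads with several alignments are not given in the sources used here. The authors deposited raw counts for 38127 genes per library and, beside each count, a score that equals the count times 1 factor per library, rounded. The score served only to read the authors' factors.

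Counts were tested with edgeR 4.0.16 (R 4.3.3, TMM, filterByExpr, quasi-likelihood test, Benjamini-Hochberg adjustment over all genes tested, threshold 0.05), the design holding the population and nothing else. One fit took the 9 E14.5 libraries (15461 genes) and another the 6 CD54+ libraries (15863 genes). An SE is the log2 fold change over the square root of F, and 95% intervals from the SE. Levels were scaled over all 12 libraries, so a ratio of levels can differ from the fitted fold change. Exon lengths were the union of GENCODE vM21 exons, in which 37932 identifiers were found. Family shares and ratios were tested by exact permutation over libraries. Total counts ranged from 40714017 to 64368883, so that precision is limited by having 3 libraries per population. No pair of replicates agreed within sampling noise.

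The alternatives were other scalings (DESeq2 size factors, the authors' factors, library totals), leaving out genes above 1% of a library's counts, other low count filters, DESeq2 1.42.0, the replicate number as a block, other sets of libraries in the fit and the removal of single libraries. Family shares and ratios to the replication genes were also computed without division by exon length. The fits were tested on simulated data. The genes named were the 8 members, the genes that overlap or copy them, the 3 genes most like each, and the 2 called genes with the largest difference in each direction per list and comparison, apart from a few that are not reported here. The members and lists were chosen with earlier results of these data known.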

Additional observations from a re-analysis of the deposited data

How the results depend on the processing

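The counts of the 8 genes and of pathway list genes called stayed within 1.5 times under all alternatives run, although their split by direction moved with the scaling, and the family shares and the ratios to the replication genes kept their direction and side of the threshold. For shares and ratios the direction is that between the populations with the highest and lowest mean, not the order of genes within a population. Leaving out each library in turn gave 6 to 7 genes called in P2 against CD54+, 6 to 7 in P2 against CD31+, 5 to 6 in CD31+ against CD54+ and 6 to 7 with age, and 48 to 50, 47 to 49, 44 to 47 and 47 to 58 list genes. Of the single log2 fold changes, 3 turned direction where a call stood before or after: *Tet3* in P2 against CD54+ cells with the authors' factors (-0.0196), and *Dnmt3a* (0.45) and *Uhrf1* (0.0900) in CD31+ against CD54+ cells with library totals alone; 14 others lost and 15 gained a call, most of them for *Tet1*, *Tet2*, *Tet3* and *Tdg*, and 472 stayed on their side of the threshold. Among the latter, 15 values turned sign with no call before or after: for *Dnmt3b* in P2 against CD31+ cells, for *Dnmt3a* in CD31+ against CD54+ cells and with age, for *Tet2* in P2 against CD54+ cells, for *Tet1* and *Tdg* in CD31+ against CD54+ cells and for *Tdg* with age. The authors' factors moved the median of all genes by -0.26, -0.37, 0.11 and 0.23 in the 4 comparisons, and library totals alone by 0.37, -0.12, 0.50 and 0.42. Same-numbered replicates of compared groups deviated together weakly, with correlations from 0.0038 to 0.169, all 12 positive and 3 above 0.1. Differently numbered replicates had correlations from -0.177 to 0.0748. The labels do not say that a number marks a litter, so the numbers were not taken to pair the libraries. The study describes its E14.5 replicates as independent litters, however, and populations of one litter may share a number. With the replicate block 8, 7, 6 and 6 of the 8 genes were called, *Tet2* being added in P2 against CD54+ cells (-0.22, adjusted p = 0.0476) and *Tet1* in CD31+ against CD54+ cells (-0.36, adjusted p = 0.0483), and 56, 50, 51 and 49 list genes. Counting error is small at these depths for all 8 genes, whose lowest count was 246, and the spread between 3 libraries sets the limit.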
